A study of Mus musculus with 12 samples.

Results

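Cytochrome P450 family 2 is a family of oxidising enzymes with many genes in the mouse. Of the 49 Cyp2 genes found by symbol among the 38924 gene IDs of the count tables, the 7 described here were Cyp2a4, Cyp2a5, Cyp2e1, Cyp2j5, Cyp2j13, Cyp2d22 and Cyp2d26. They were chosen by symbol as Cyp2 genes expressed in the kidney, and all 7 were found and passed the filter on low counts. The other 42 Cyp2 genes serve as the comparison, and 16 of them passed that filter.

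Cytochrome P450 enzymes are haem proteins of the endoplasmic reticulum that insert 1 oxygen atom into a substrate with electrons passed on from NADPH by P450 oxidoreductase (Por). Family 2 members oxidise drugs, solvents, steroids and fatty acids. In the kidney most of this activity sits in the proximal tubule, where the J subfamily is known for turning arachidonic acid into epoxides, and several members are known for sex-biased levels in mice.

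RNA was sequenced from whole kidneys of mice on the C57BL/6J background, in 4 groups of 3 libraries. Knockout (KO) mice carried a floxed Arntl gene, which encodes the clock factor BMAL1, with the Pax8-rtTA and LC1 transgenes, so that doxycycline turned on Cre recombinase in cells of the renal tubule and left the other cells of the kidney with the intact gene. Doxycycline was given at 2 mg/ml in the drinking water for 2 weeks from 8 weeks of age. Wild-type (WT) controls were littermates. All mice ate a standard chow freely, lived in 12 h of light and 12 h of dark, and were killed at ZT4 or at ZT16, which are 4 h and 16 h after lights on. The labels do not say whether the WT littermates drank doxycycline or carried a floxed allele or transgene, how old the mice were when killed, or whether each library is a separate animal. The p-values therefore measure the spread between these libraries.

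Each library held 25628887 to 38043491 counts assigned to genes. Replicate 2 of the KO ZT16 group stood apart: its coordinate on the first principal component was 43.0, against -9.73 and -11.8 in the other KO ZT16 libraries, and mitochondrial genes took 22.3% of its counts, against 14.1% and 14.0%. Member results are therefore given without it where that changes them. All 12 libraries had a male pattern, with Ddx3y at 70.5 CPM or more and Xist at 0.192 CPM or less (CPM is the counts-per-million unit, with TMM-scaled library totals). Arntl itself measured 20.01, 15.3 and 13.8 CPM at WT ZT4, 15.95, 14.4 and 16.2 at KO ZT4, 10.5, 8.63 and 11.0 at WT ZT16, and 12.3, 13.4 and 15.01 at KO ZT16. Its log2 difference between KO and WT did not pass the test, with -0.08 ± 0.14 at ZT4 (adjusted p = 0.777) and 0.43 ± 0.15 at ZT16 (0.151). Without KO ZT16 replicate 2 the ZT16 difference passed it, higher in KO, at 0.49 (adjusted p = 0.0240). The counts add up all exons and all cell types, and the sources used here do not say which exon was deleted, so this level does not check the labels.

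Cyp2a4 and Cyp2a5 lie on chromosome 7 of GRCm38, at 26307169 to 26315088 and at 26835305 to 26843548, both on the plus strand. Their protein-coding sequences are 1485 bases each and differ at 23 bases, an identity of 98.5%. The stretch of coding bases 550 to 669, counted from the start codon, is shown because such bases are what tells the reads of these genes apart. Capitals mark the 6 bases at which they differ.
Cyp2a4: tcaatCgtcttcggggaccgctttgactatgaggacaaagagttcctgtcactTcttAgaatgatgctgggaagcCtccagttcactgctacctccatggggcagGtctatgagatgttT
Cyp2a5: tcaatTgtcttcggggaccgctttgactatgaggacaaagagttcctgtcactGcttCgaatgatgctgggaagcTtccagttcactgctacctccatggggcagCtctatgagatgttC

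Between such positions the longest identical run was 216 bases. Of all 50-base windows in the annotated transcripts, 38.8% for Cyp2a4 and 37.0% for Cyp2a5 also occurred in another gene, mainly in each other. The share was 9.49% for Cyp2d26, 4.13% for Cyp2d22, 3.91% for Cyp2e1, 0.174% for Cyp2j5 and 0.148% for Cyp2j13. In windows of 100 bases it was 11.2% for Cyp2a4, 12.1% for Cyp2a5 and at most 1.16% for the others. Reads that aligned to more than 1 place were listed apart from the gene counts, at 30.8% to 43.0% of a library, so the levels of the Cyp2a genes rest on the parts that tell them apart and are uncertain, most of all the level of one against the other.

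Cyp2a4 hydroxylates steroids, testosterone among them. It measured 586, 622 and 600 CPM in the WT ZT4 libraries and 137, 110 and 122 in the KO ZT4 libraries. At ZT16 it measured 911, 842 and 996 in WT and 222, 174 and 161 in KO. Every KO library was below every WT library, whatever the time. Cyp2a4 fell in KO by 2.30 ± 0.13 (SE, n = 3 against 3) on the log2 scale at ZT4, which is 4.91-fold (edgeR quasi-likelihood test, Benjamini-Hochberg adjusted p = 2.22e-06). At ZT16 it fell by 2.30 ± 0.13, which is 4.93-fold (adjusted p = 1.39e-06). In whole kidneys, fewer cells of a type and less RNA per cell cannot be told apart, here and in every result that follows.

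Cyp2a5 is the coumarin hydroxylase of the mouse, which also acts on nicotine. It measured 55.0, 105 and 107 CPM at WT ZT4 and 9.69, 10.7 and 14.7 at KO ZT4. In the ZT16 groups it reached 288, 339 and 295 CPM in WT and 51.8, 27.5 and 20.9 in KO. The groups did not overlap between genotypes at either time, and the highest KO value came from the library that stood apart. Cyp2a5 fell in KO by 2.93 ± 0.34 at ZT4, or 7.63-fold (adjusted p = 0.000393), and fell by 3.20 ± 0.33 at ZT16, or 9.20-fold (adjusted p = 0.000126). Without KO ZT16 replicate 2 the ZT16 difference was -3.67 (adjusted p = 8.57e-07).

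Since the 2 genes are hard to tell apart, their counts were also summed and tested as 1 feature. Reads that aligned to both genes are missing from this sum too. The sum fell in KO by 2.36 ± 0.14 at ZT4 (adjusted p = 3.83e-06) and by 2.48 ± 0.14 at ZT16 (adjusted p = 1.60e-06). Cyp2a4 made up 91.4%, 85.6% and 84.8% of the summed counts in the WT ZT4 libraries and 93.4%, 91.2% and 89.2% in the KO ZT4 libraries. At ZT16 it made up 76.0%, 71.3% and 77.2% in WT and 81.1%, 86.4% and 88.5% in KO. The Wilson 95% intervals were narrow, such as 91.0% to 91.8% for the first of these, and cover counting error only. The Cyp2a4 share was lower in every WT ZT16 library than in every WT ZT4 library and every KO ZT16 library, while the genotypes overlapped at ZT4. These shares are a description and were not tested.

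**Figure D1:**
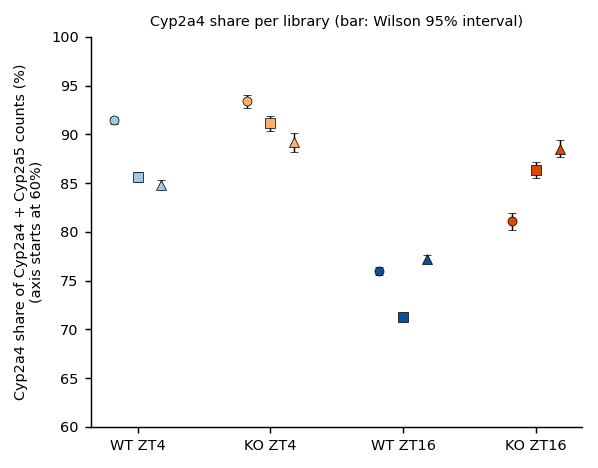
Cyp2a4 counts as a percentage of Cyp2a4 plus Cyp2a5 counts in each of the 12 libraries (y axis from 60%), with Wilson 95% intervals. The 3 WT ZT16 libraries lie at 71.3% to 77.2%, below the other 9, which lie at 81.1% to 93.4%.

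Cyp2e1, on chromosome 7 at 140763739 to 140774987 (plus strand), oxidises ethanol, acetone and other small molecules. It measured 1365, 1786 and 1391 CPM at WT ZT4 and 811, 869 and 798 at KO ZT4. The ZT16 libraries held 1992, 2045 and 2039 CPM in WT and 1216, 1036 and 1024 in KO. All 6 KO libraries were below all 6 WT libraries. Cyp2e1 fell in KO by 0.87 ± 0.11 at ZT4, or 1.83-fold (adjusted p = 0.000941), and by 0.89 ± 0.11 at ZT16, or 1.86-fold (adjusted p = 0.000611).

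The 2J genes lie on the minus strand of chromosome 4, Cyp2j13 at 96027534 to 96077546 and Cyp2j5 at 96628773 to 96664154. Their coding sequences are 77.6% identical. Cyp2j5 is an arachidonic acid epoxygenase of the proximal tubule. It was the most abundant member, with 2054, 2222 and 1971 CPM at WT ZT4 and 2008, 1789 and 1829 at KO ZT4. At ZT16 it measured 2405, 2282 and 2857 CPM in WT and 3240, 2220 and 2113 in KO. The genotypes overlapped at both times, and the highest value of all was that of KO ZT16 replicate 2. The log2 difference between KO and WT did not pass the test at ZT4, with -0.15 ± 0.15 (adjusted p = 0.594), or at ZT16, with 0.01 ± 0.15 (0.992). Without that library the ZT16 difference was -0.23 ± 0.10 (adjusted p = 0.0991).

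Cyp2j13 is a close relative of Cyp2j5. It measured 368, 508 and 367 CPM at WT ZT4 and 288, 277 and 271 at KO ZT4. The ZT16 values were 488, 470 and 589 CPM in WT and 366, 323 and 368 in KO. The genotypes did not overlap at either time, but KO ZT16 reached the lower 2 values of WT ZT4. Cyp2j13 fell in KO by 0.57 ± 0.13 at ZT4 (adjusted p = 0.0350) and by 0.55 ± 0.13 at ZT16 (adjusted p = 0.0356), or 1.49-fold and 1.46-fold. The ZT4 call was lost without WT ZT4 replicate 3 (-0.40, adjusted p = 0.125), WT ZT4 replicate 1, any 1 of the KO ZT4 libraries or WT ZT16 replicate 1 (adjusted p from 0.0501 to 0.147). The ZT16 call was lost in a fit of only the ZT16 groups (adjusted p = 0.121), and without any 1 of the KO ZT4 libraries, WT ZT16 replicates 1 or 5, or KO ZT16 replicates 4 or 6 (adjusted p from 0.0589 to 0.148). Whether Cyp2j13 and Cyp2j5 differ in their response to the knockout was not tested.

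The 2D genes lie on the minus strand of chromosome 15, Cyp2d22 at 82370527 to 82380260 and Cyp2d26 at 82790101 to 82794294, with coding sequences 78.5% identical. Their values were higher in KO. Cyp2d22, which is often compared with the human 2D enzyme that clears many drugs, measured 27.5, 22.1 and 24.1 CPM at WT ZT4 and 32.5, 32.4 and 31.4 at KO ZT4. Those at ZT16 were 29.3, 27.9 and 25.5 CPM in WT and 36.4, 34.5 and 38.2 in KO. All 6 KO libraries were above all 6 WT libraries. Cyp2d22 rose in KO by 0.38 ± 0.09 at ZT4, or 1.31-fold (adjusted p = 0.0423), and by 0.40 ± 0.09 at ZT16, or 1.32-fold (adjusted p = 0.0293). These calls were close to the threshold of 0.05. At ZT4 the call was lost with RLE scaling (adjusted p = 0.0507), without the filter on low counts (0.0610), and without any 1 of WT ZT4 replicates 3 and 5, the KO ZT4 libraries, WT ZT16 replicates 1 and 3 and KO ZT16 replicates 4 and 6 (0.0515 to 0.182). At ZT16 it was lost in a fit of only the ZT16 groups (0.154) and without any 1 of the KO ZT4 libraries, the WT ZT16 libraries and KO ZT16 replicates 4 and 6 (0.0507 to 0.153).

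Cyp2d26 measured 177, 156 and 169 CPM at WT ZT4 and 195, 202 and 216 at KO ZT4. At ZT16 it measured 198, 156 and 165 CPM in WT and 258, 219 and 213 in KO. The genotypes did not overlap at either time. The log2 difference of 0.29 ± 0.11 at ZT4 (adjusted p = 0.178) did not pass the test, nor did that of 0.41 ± 0.11 at ZT16 (0.0518). Without KO ZT16 replicate 2, both passed it, at 0.29 (adjusted p = 0.0375) and 0.31 (adjusted p = 0.0253). At ZT16 so did DESeq2 (adjusted p = 0.00964), limma voom (0.0475) and the fit without WT ZT16 replicate 1 (0.51, adjusted p = 0.0293). A fit of only the ZT4 groups also called it at ZT4 (adjusted p = 0.0180).

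**Figure D2:**
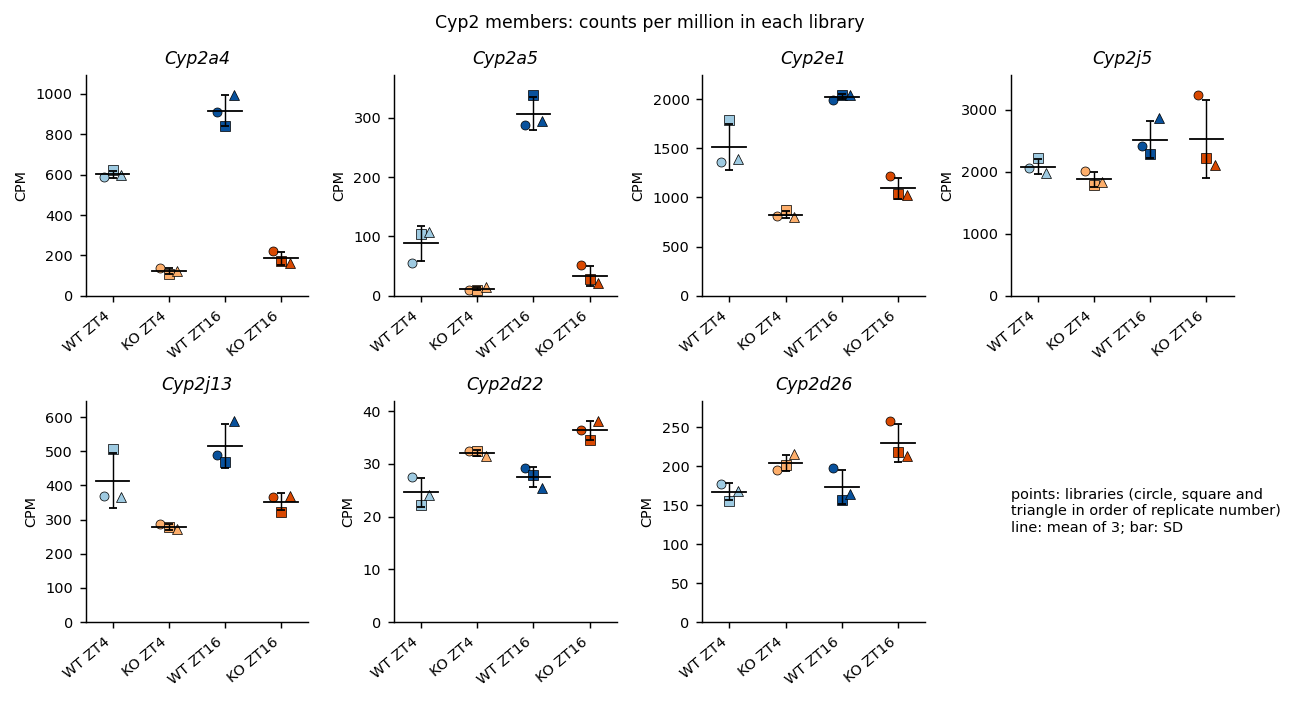
CPM (y axis, from 0) of the 7 members in each library, by group (x axis); points are libraries, lines are means of 3 and bars are SD. Cyp2a4, Cyp2a5, Cyp2e1 and Cyp2j13 are lower and Cyp2d22 and Cyp2d26 higher in the KO group of each time, while the Cyp2j5 groups overlap, with the KO ZT16 library at 3240 above all others.

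In all, 5 of the 7 members passed the test at ZT4, 4 lower and 1 higher in KO, where 3.29% of the 16150 genes tested did (1.66% lower and 1.63% higher). At ZT16 5 passed, again 4 lower and 1 higher, where 4.03% of genes did (1.96% lower and 2.07% higher). They were Cyp2a4, Cyp2a5, Cyp2e1 and Cyp2j13 (lower) and Cyp2d22 (higher) at both times. Since the members were chosen with earlier results of these data known, these counts describe the 7 genes and do not test the family. The median log2 difference of the 7 members was -0.57 at ZT4 and -0.55 at ZT16, and that of all genes tested was 0.00 and 0.02. The genotypes did not overlap for 6 of the 7 members at both times, as for 37.7% of all genes tested at ZT4 (18.4% with KO lower) and 15.9% at ZT16 (7.95% with KO lower). No difference in the knockout response between the times was detected in a member: 0 of 7 passed the test of the interaction of genotype and time (edgeR, adjusted p = 0.9996 for each), against 0.0186% of all genes (0.0124% lower and 0.00619% higher, 540 genes at an unadjusted p under 0.05), and DESeq2 and limma voom also called 0 members. The interaction was -0.01 ± 0.17 for Cyp2a4, -0.27 ± 0.44 for Cyp2a5 and -0.02 ± 0.16 for Cyp2e1.

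Other values moved with genotype beside the members. The summed CPM of 10 markers of the S3 segment of the proximal tubule was 7194 to 7804 at WT ZT4 and 5203 to 5724 at KO ZT4, and 7784 to 9525 at WT ZT16 and 6092 to 7432 at KO ZT16. Of these 10, Slc7a13 (-0.73), Aqp1 and Napsa (-0.63) fell and Slc7a12 (2.62) rose at ZT4, and Napsa fell and Slc7a12 rose at ZT16. The summed CPM of 10 markers of the S1 and S2 segments was 12050 to 13070 at WT ZT4 and 12010 to 12240 at KO ZT4, and 10520 to 11620 and 9264 to 11630 at ZT16, and of these Slc22a8 fell at both times and Slc6a19 at ZT4. Mitochondrial genes took 16.3% to 18.0% of counts at WT ZT4 and 12.6% to 12.8% at KO ZT4, and 18.7% to 22.4% and 14.0% to 22.3% at ZT16. Reads not aligned uniquely, the class that the Cyp2a genes can lose reads to, made up 34.1% to 36.5% at WT ZT4 and 30.8% to 31.3% at KO ZT4, and 38.8% to 41.8% and 33.3% to 43.0% at ZT16. Markers of other cell types moved too. The summed CPM of 6 macrophage markers was 137 to 206 at WT ZT4 and 119 to 124 at KO ZT4, and 133 to 149 and 103 to 122 at ZT16, and Csf1r fell at both times (-0.33 and -0.33, adjusted p = 0.0419 and 0.0361). The sum of 6 endothelial markers was 363 to 391.5 and 337 to 356 at ZT4 and 346 to 362 and 321 to 342 at ZT16, with no marker called. That of 5 markers of the distal convoluted tubule was 911 to 1087 in WT and 1139 to 1245 in KO at ZT4, and 951 to 1088 and 1130 to 1253 at ZT16, also with none called. At ZT4 alone, the sum of 6 loop of Henle markers was lower in KO (7189 to 7979 against 6351 to 6593), with Umod called (-0.55, adjusted p = 0.0467), and those of collecting duct principal cells (343 to 385 against 406 to 431) and podocytes (224 to 274 against 279 to 292) were higher, with none called. The part of all these in the member results was not tested. Liver is rich in Cyp2 RNA. Of 14 hepatocyte markers, Tat was at 0 in every library and 7 of the 14 were below 1 CPM in every library. The 7 adrenal cortex markers were all below 1 CPM too, with Cyp11b1 and Cyp11b2 at 0. The hepatocyte sum was 108 to 128 CPM at WT ZT4 and 161 to 220 at KO ZT4, and 91.9 to 124 and 147 to 169 at ZT16. Ttr was at 54.7 to 198 CPM, Serpina1a at 4.69 to 20.3 and Alb at 1.085 to 16.3. Ttr rose in KO (0.98 and 0.96) and Alb (-2.96 and -2.55) and Serpina1a fell. Whether liver or adrenal tissue had a part in the member levels was not tested.

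The second comparison was between times of day. In WT kidneys 3 of the 7 members rose from ZT4 to ZT16, where 6.5% of all genes tested changed (2.87% rose and 3.63% fell). Cyp2a5 rose by 1.79 ± 0.31, or 3.46-fold (adjusted p = 0.00850), Cyp2a4 by 0.60 ± 0.12, or 1.52-fold (adjusted p = 0.0160), and Cyp2e1 by 0.42 ± 0.11, or 1.34-fold (adjusted p = 0.0453). For these 3 genes every WT ZT16 library was above every WT ZT4 library, as it was for Cyp2j5. Of all genes tested, 42.6% had no overlap between these groups (21.3% with ZT16 lower). The differences of the other members were 0.32 ± 0.13 for Cyp2j13 (adjusted p = 0.138), 0.27 ± 0.15 for Cyp2j5 (0.236), 0.16 ± 0.09 for Cyp2d22 (0.247) and 0.05 ± 0.11 for Cyp2d26 (0.784). The Cyp2a5 call held in all 19 alternatives tried. The Cyp2a4 call was lost without WT ZT4 replicates 1 or 5 or WT ZT16 replicate 5 (adjusted p from 0.0590 to 0.0748). The Cyp2e1 call was lost in 10 of 20 alternatives, 9 of which left out 1 library: WT ZT4 replicates 1 and 5, each WT ZT16 and KO ZT4 library, and KO ZT16 replicate 4 (adjusted p from 0.0539 to 0.189). Without KO ZT16 replicate 2, 5 members rose in WT, Cyp2j5 (adjusted p = 0.0271) and Cyp2j13 (0.0461) added, where 5473 genes passed the test. Cyp2j13 also passed without WT ZT4 replicate 3 (0.49, adjusted p = 0.0385).

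In KO kidneys the same 3 members rose from ZT4 to ZT16, where 10.5% of all genes tested changed (5.27% rose and 5.2% fell). Cyp2a5 rose by 1.52 ± 0.32, or 2.86-fold (adjusted p = 0.0191), Cyp2a4 by 0.60 ± 0.12, or 1.51-fold (adjusted p = 0.0167), and Cyp2e1 by 0.40 ± 0.11, or 1.32-fold (adjusted p = 0.0428). For each of them the 3 KO ZT16 libraries were above the 3 KO ZT4 libraries, as they were for Cyp2j5, Cyp2j13 and Cyp2d22. The Cyp2a5 values spread from 20.9 to 51.8 CPM at KO ZT16. Of all genes tested, 43.3% had no overlap between these groups (22.2% with ZT16 lower). Without KO ZT16 replicate 2, the differences of Cyp2a5, Cyp2a4 and Cyp2e1 were 1.06 (adjusted p = 0.0199), 0.45 (0.0134) and 0.31 (0.0715). In a fit of only the KO groups none of the 7 passed the test (adjusted p of 0.0908 for Cyp2a5, 0.0974 for Cyp2a4 and 0.104 for Cyp2e1). That fit also called far fewer of all genes than the main fit, as given further below. The calls of Cyp2a4 and Cyp2a5 were also lost without KO ZT4 replicate 4 (0.0853 and 0.0875) or 6 (0.0701 and 0.0507), that of Cyp2a5 without KO ZT4 replicate 2 (0.0720), and that of Cyp2e1 without any 1 of WT ZT4 replicates 1 and 5, the WT ZT16 libraries and the KO ZT4 libraries (0.0508 to 0.136). Cyp2j5 differed by 0.43 ± 0.15 (adjusted p = 0.0747) and Cyp2j13 by 0.34 ± 0.13 (0.0914). The differences of Cyp2d22, 0.18 ± 0.09 (0.1715), and Cyp2d26, 0.17 ± 0.11 (0.2565), did not pass the test either. DESeq2 called Cyp2j5 (adjusted p = 0.0301), as did the fit without KO ZT16 replicate 6 (0.0324). The comparisons share libraries with each other, each group being used by one genotype and one time comparison.

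**Figure D3:**
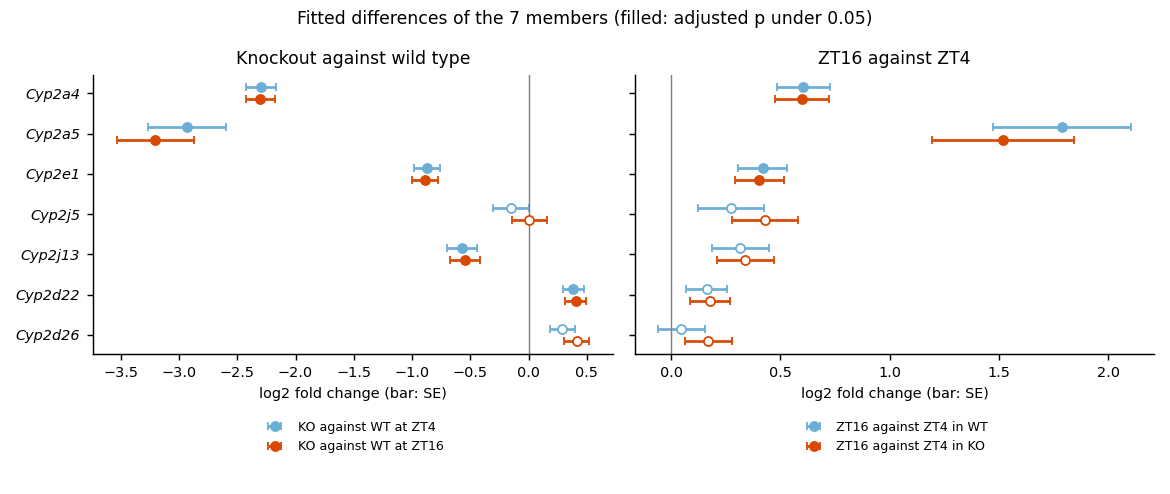
Fitted log2 fold changes of the 7 members (x axis; bars are SE), KO against WT at ZT4 and ZT16 on the left and ZT16 against ZT4 in WT and KO on the right; filled points have an adjusted p under 0.05. Cyp2a4 and Cyp2a5 lie at -3.20 to -2.30 on the left and, with Cyp2e1, are the filled points at 0.40 to 1.79 on the right.

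Levels were put in order per kb of exon, since longer genes collect more reads. At WT ZT4 the means were 888 CPM per kb for Cyp2j5, 702 for Cyp2e1, 347 for Cyp2a4, 93.4 for Cyp2d26, 88.3 for Cyp2j13, 42.9 for Cyp2a5 and 6.29 for Cyp2d22. The libraries of neighbours in this order did not overlap except for Cyp2d26 and Cyp2j13. At KO ZT4 the order was Cyp2j5 (800), Cyp2e1 (383), Cyp2d26 (114), Cyp2a4 (70.7), Cyp2j13 (59.5), Cyp2d22 (8.21) and Cyp2a5 (5.64), with no overlap between neighbours. At ZT4 Cyp2a4 thus stood above Cyp2d26 in WT and below it in KO, and Cyp2a5 was last in KO. The shares of Cyp2a windows found in other genes, 37.0% and 38.8%, are about as large as the gaps of Cyp2a4 to Cyp2d26 and of Cyp2a5 to Cyp2d22 at KO ZT4, so their places there are uncertain.

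At WT ZT16 the order was Cyp2j5 (1072 CPM per kb), Cyp2e1 (938), Cyp2a4 (527), Cyp2a5 (148), Cyp2j13 (110), Cyp2d26 (96.4) and Cyp2d22 (7.04), and only Cyp2j13 and Cyp2d26 overlapped. At KO ZT16 it was Cyp2j5 (1076), Cyp2e1 (506), Cyp2d26 (128), Cyp2a4 (107), Cyp2j13 (75.2), Cyp2a5 (16.1) and Cyp2d22 (9.30), and only Cyp2d26 and Cyp2a4 overlapped. The lengths count all annotated exons, so the Cyp2a levels, which leave out shared reads, are low estimates. Together the 7 members took 0.464% to 0.531% of all gene counts at WT ZT4, 0.376% to 0.395% at KO ZT4, 0.568% to 0.578% at WT ZT16 and 0.420% to 0.442% at KO ZT16.

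Across the 12 libraries the members fell into blocks by Pearson correlation of their log2 CPM, given as a description, since the points share libraries, scaling and the group differences above. Cyp2a4, Cyp2a5, Cyp2e1 and Cyp2j13 correlated with each other at 0.890 to 0.979, and Cyp2d22 with Cyp2d26 at 0.869. Between these blocks the correlations were -0.743 to -0.577. Cyp2j5 correlated with the first block at 0.409 to 0.606 and with Cyp2d22 and Cyp2d26 at 0.0446 and 0.172.

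The genes most like each member, up to 3, were taken from 11064 genes whose mean reached 5 CPM. For Cyp2a4 they were Ces1d, a carboxylesterase (r = 0.990 over 12 libraries), Slc22a5, the carnitine transporter (0.987), and Gda, guanine deaminase (0.986). For Cyp2a5 they were Cyp2e1 (0.979), the clock gene Per3 (0.978) and Acy1, an aminoacylase (0.976), and for Cyp2e1 they were Cyp2a5 (0.979), Ces1d (0.976) and Anxa7, an annexin (0.975). Ces1d averaged 318 CPM at WT ZT4, 64.5 at KO ZT4, 616 at WT ZT16 and 108 at KO ZT16, and fell in KO by 2.30 at ZT4 (adjusted p = 0.000121) and fell by 2.51 at ZT16 (5.77e-05). Close carboxylesterase genes can share reads too. With group means removed, the correlations of the genes named here were lower, at 0.584 to 0.857.

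For Cyp2j13 the most alike were Man1a (0.970), Arap2 (0.964) and Cers5 (0.964). For Cyp2j5 they were Zfp938 (0.991), Cfdp1 (0.991) and Eif4a2, a translation initiation helicase (0.989), and with group means removed these were 0.989, 0.990 and 0.987. The spread of Cyp2j5 within groups includes KO ZT16 replicate 2, at 3240 CPM against 2220 and 2113. For Cyp2d22 they were Ltc4s, a leukotriene synthase (0.943), Fgb, the fibrinogen beta chain (0.939), and Cp, ceruloplasmin (0.929). For Cyp2d26 they were Slc38a3, a glutamine transporter (0.936), and Echdc3 (0.931). With group means removed, those of Cyp2j13 were 0.814 to 0.901 and those named for the 2D genes 0.551 to 0.733. Fgb rose in KO by 1.79 at ZT4 (adjusted p = 0.00184) and by 2.33 at ZT16 (0.000199), and Slc38a3 by 0.58 (0.0344) and 0.79 (0.00433), both further than the 2D genes they resembled.

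Among the other 42 Cyp2 genes, 26 had too few counts to test, and 11 of these, such as Cyp2a12, Cyp2b9 and Cyp2g1, had no count in any library. Of the 16 tested, 2 passed at ZT4, where 3.29% of all genes tested did, and 2 at ZT16, where 4.03% did, with a median difference of 0.06 and 0.14. Cyp2d12 measured 69.9, 46.1 and 75.7 CPM at WT ZT4, 142, 129 and 122 at KO ZT4, 91.9, 54.3 and 92.3 at WT ZT16 and 190, 155 and 179 at KO ZT16. It rose in KO by 1.03 ± 0.21 (adjusted p = 0.0185) and 1.14 ± 0.21 (0.00780), with no overlap at either time. The ZT4 call was lost without WT ZT4 replicates 1 or 3 or any 1 of the KO ZT4 libraries (0.0509 to 0.0780), and the ZT16 call in a fit of only the ZT16 groups (0.0518).

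Cyp2d9, a steroid hydroxylase known as male-biased, measured 178, 186 and 166 CPM at WT ZT4, 102, 121 and 119 at KO ZT4, 219, 195 and 223 at WT ZT16 and 200, 127 and 153 at KO ZT16. It fell in KO by 0.63 ± 0.14 at ZT4 (adjusted p = 0.0306), a call lost without any 1 of the 6 ZT4 libraries or WT ZT16 replicate 1 (0.0541 to 0.140). At ZT16 the difference was -0.41 ± 0.14 (0.157), and -0.61 (0.000933) without KO ZT16 replicate 2. So at ZT4 the 2D subfamily held genes called higher in KO, Cyp2d12 and Cyp2d22, and a gene called lower, Cyp2d9. Windows that Cyp2d9 or Cyp2d12 share with other genes were not counted, so the effect of shared reads on their levels is not known. Cyp2f2, a gene of low counts, measured 1.86, 1.74 and 1.39 CPM at WT ZT16 and 3.15, 2.55 and 3.47 at KO ZT16, and rose by 0.87 ± 0.17 (adjusted p = 0.0104), against 0.26 ± 0.16 (0.389) at ZT4. Its ZT16 call was lost without WT ZT16 replicate 5 (0.0559) or KO ZT16 replicate 6 (0.0502) and in a fit of only the ZT16 groups (0.113).

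Of the remaining Cyp2 genes the 3 most abundant did not pass the test: Cyp2j11 differed by 0.05 ± 0.08 and -0.03 ± 0.08 at ZT4 and ZT16 (adjusted p = 0.751 and 0.893), Cyp2j6 by -0.05 ± 0.13 and 0.08 ± 0.13 (0.861 and 0.811), and Cyp2c23, an epoxygenase, by 0.32 ± 0.15 and 0.19 ± 0.15 (0.292 and 0.588). Cyp2c23 passed at ZT4 in a fit of only the ZT4 groups (0.0442).

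**Figure D4:**
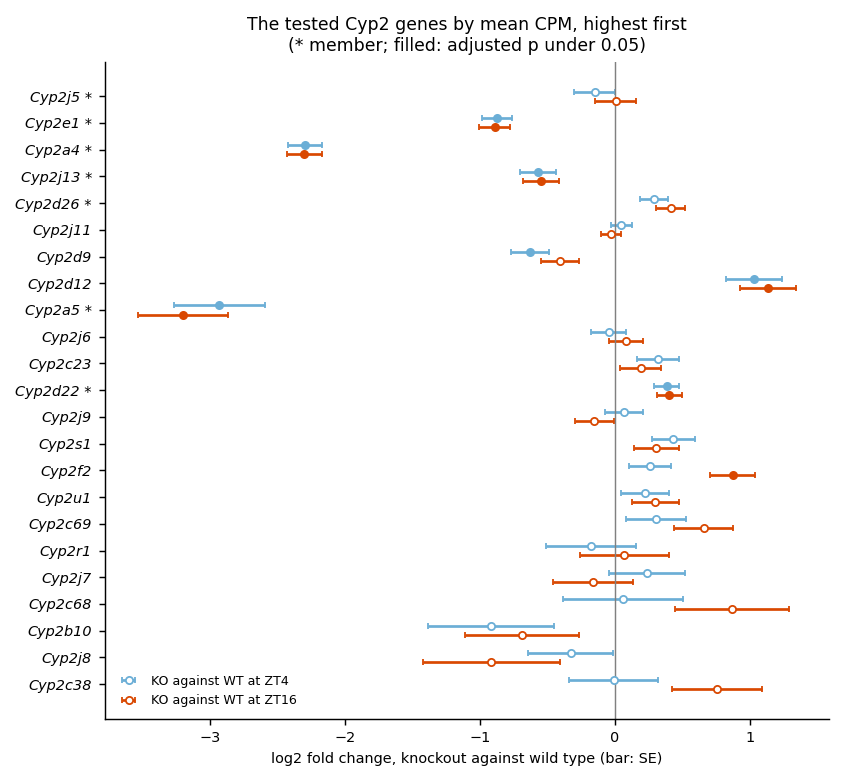
Log2 fold change of KO against WT (x axis; bars are SE) at ZT4 and ZT16 for the 23 tested Cyp2 genes (y axis, highest mean CPM first; * marks the 7 members); filled points have an adjusted p under 0.05. Cyp2a5 and Cyp2a4 lie farthest to the left and Cyp2d12 at 1.03 and 1.14 is the filled gene farthest to the right.

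The partners of these enzymes were described from lists chosen beside the members. Por, which feeds electrons to all microsomal P450s, measured 207, 207 and 241 CPM at WT ZT4, 172, 183 and 172 at KO ZT4, 216, 212 and 177 at WT ZT16 and 116, 185 and 191 at KO ZT16. Its difference was -0.32 ± 0.16 (adjusted p = 0.311) and -0.30 ± 0.16 (0.386), and KO ZT16 replicate 2 was the lowest library. Without that library the ZT4 difference passed the test (0.0247), as it did in a fit of only the ZT4 groups (0.0154). Of the 9 electron transfer genes listed, edgeR called 0 between genotypes at either time.

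Of 9 genes of haem synthesis, 1 fell at both times and none rose, where 1.66% of all genes tested fell at ZT4 and 1.96% at ZT16. The median difference of the 9 was -0.16 and -0.09. This was Alas1, the first and rate-limiting enzyme of the pathway, which supplies the haem of every P450. It measured 208, 181 and 147 CPM at WT ZT4, 120, 110 and 127 at KO ZT4, 467, 544 and 478 at WT ZT16 and 309, 315 and 299 at KO ZT16, and no 2 groups compared overlapped. Alas1 fell in KO by 0.59 ± 0.12 (adjusted p = 0.0172) and 0.69 ± 0.12 (0.00472), and rose from ZT4 to ZT16 by 1.47 ± 0.12 in WT (5.87e-05) and 1.37 ± 0.12 in KO (0.000404). Its ZT4 call was lost without WT ZT4 replicates 1 or 3 or KO ZT4 replicates 2 or 4 (0.0711 to 0.0978).

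Of a list of 8 clock output factors, PAR bZIP and REV-ERB factors among them, 4 fell at ZT4, where 1.66% of all genes tested did, and 4 at ZT16, where 1.96% did. Dbp, Tef and Hlf are the PAR bZIP activators known for driving Cyp2 genes in mouse liver and kidney. Dbp measured 23.5, 32.3 and 29.9 CPM at WT ZT4, 6.97, 11.1 and 11.1 at KO ZT4, 23.2, 20.9 and 21.3 at WT ZT16 and 9.85, 7.93 and 6.08 at KO ZT16. It fell by 1.56 ± 0.20 (adjusted p = 0.000847) and 1.45 ± 0.20 (0.00115), with no overlap.

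Tef measured 185, 232 and 238 CPM at WT ZT4, 164, 165 and 172 at KO ZT4, 223, 245 and 236 at WT ZT16 and 150, 159 and 156 at KO ZT16. It fell by 0.39 ± 0.09 (adjusted p = 0.0423) and 0.60 ± 0.09 (0.00305). The ZT4 call of Tef was lost without the filter on low counts (0.0595) and in 10 of the fits that left out 1 library (0.0561 to 0.168). Hlf did not pass the test, at 0.44 ± 0.12 (0.0644) and -0.05 ± 0.12 (0.875). At ZT4 it passed, higher in KO, with DESeq2 (0.0185), in a fit of only the ZT4 groups (0.00958) and without KO ZT16 replicate 2 (0.0114). Others called were Nr1d1 (-1.89 and -0.97) and Nr1d2 (-2.00 and -1.96), lower at both times, and Nfil3 (1.64), a repressor at the same sites, higher at ZT4.

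Of 20 regulators linked to Cyp2 genes, 19 were tested, and 3 rose and 1 fell at ZT4, where 1.63% of all genes tested rose and 1.66% fell, and 1 rose and 1 fell at ZT16, where 2.07% rose and 1.96% fell. Their median difference was 0.23 and 0.11, against 0.00 and 0.02 over all genes tested. Prlr, the prolactin receptor, measured 19.5, 20.6 and 29.0 CPM at WT ZT4, 106, 63.7 and 79.0 at KO ZT4, 45.4, 23.7 and 25.5 at WT ZT16 and 73.7, 92.6 and 76.8 at KO ZT16. It rose by 1.85 ± 0.26 (adjusted p = 0.00165) and 1.36 ± 0.25 (0.00899), the latter lost without WT ZT16 replicates 3 or 5 (0.0519 and 0.0568) and in a fit of only the ZT16 groups (0.0556). Ghr, the growth hormone receptor, fell by 0.34 ± 0.08 (0.0340) and 0.41 ± 0.08 (0.00990). Its ZT4 call was lost in 9 alternatives, among them leaving out any 1 ZT4 library (0.0554 to 0.153), and its ZT16 call without KO ZT16 replicate 6 (0.0522) or in a fit of only the ZT16 groups (0.167).

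Cebpa and Cebpb, bZIP factors, rose at ZT4 by 0.49 ± 0.12 (0.0484) and 0.98 ± 0.21 (0.0285). The call of Cebpa was lost in 11 alternatives (0.0524 to 0.209) and that of Cebpb without WT ZT4 replicates 1 or 5 or KO ZT4 replicates 4 or 6 (0.0699 to 0.121). At ZT16 their differences were 0.17 (0.522) and -0.52 (0.247). Nr1i3, the nuclear receptor CAR that induces Cyp2b genes in liver, had 0.0823 to 0.392 CPM and was not tested. Hnf4a, which drives many P450 genes, differed by -0.13 (0.550) and -0.12 (0.666).

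Downstream, the epoxides made by 2J and 2C enzymes are hydrolysed by soluble epoxide hydrolase, Ephx2. It measured 558, 659 and 497 CPM at WT ZT4, 360, 366 and 350 at KO ZT4, 681, 731 and 866 at WT ZT16 and 635, 411 and 426 at KO ZT16, with no overlap between genotypes. Ephx2 fell at ZT4 by 0.67 ± 0.16 (adjusted p = 0.0445), a call lost with the filter at 5 CPM (0.0523) and without any 1 of the ZT4 libraries or WT ZT16 replicates 1 or 3 (0.0512 to 0.186). At ZT16 its difference was -0.63 ± 0.16 (0.0513). It passed without KO ZT16 replicate 2 (-0.87, 0.000182), without the filter on low counts (0.0301), and with DESeq2 (0.00783) or limma voom (0.0399). Of the 11 genes of epoxide and alcohol metabolism tested, 1 fell at ZT4 and 2 at ZT16, where 1.66% and 1.96% of all genes tested fell. Beside Ephx2 they were Aldh9a1 at ZT16 (-0.45, adjusted p = 0.0187), an aldehyde dehydrogenase, and Ptgs2 at ZT16 (-1.70, 0.0329), the inducible cyclooxygenase, at 4.596 CPM or less. Aldh9a1 lost its call without WT ZT16 replicates 1 (0.0735) or 3 (0.0560) and in a fit of only the ZT16 groups (0.188), and Ptgs2 lost it there (0.130), with limma voom (0.0745), without WT ZT4 replicate 1 and without any 1 of WT ZT16 replicates 3 and 5 and KO ZT16 replicates 4 and 6 (0.0515 to 0.137).

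**Figure D5:**
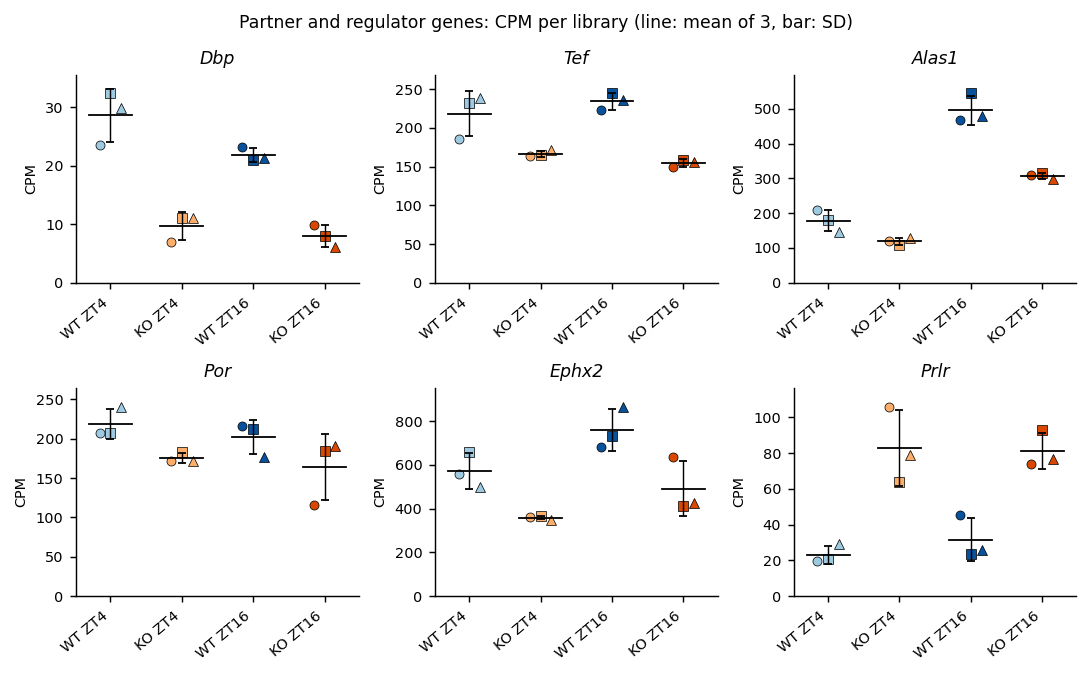
CPM (y axis, from 0) of 6 partner and regulator genes in each library, by group; points are libraries, lines are means of 3 and bars are SD. Dbp, Tef and Alas1 are lower and Prlr higher in the KO group of each time, Por is lowest at 116 in a KO ZT16 library, and Ephx2 is lower in KO with a ZT16 library at 635.

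Since Cyp2a4 and Cyp2a5 moved together and PAR bZIP factors are known for binding P450 promoters, their promoters are shown. RefSeq start sites of GRCm38.p6 were available for 6 of the 7 members, all but Cyp2d22. The 250 bases upstream of Cyp2a4 and Cyp2a5 were 98.4% identical, with 4 differing bases among 249 aligned. The stretches from -180 to -41, counted from the RefSeq start site, are chr7:26307012-26307151 for Cyp2a4 and chr7:26835159-26835298 for Cyp2a5, both on the plus strand. Capitals mark, in order, GTTAAT, a half-site of HNF1 factors, and TTGCATAA, a sequence like those of PAR bZIP and C/EBP factors.
Cyp2a4: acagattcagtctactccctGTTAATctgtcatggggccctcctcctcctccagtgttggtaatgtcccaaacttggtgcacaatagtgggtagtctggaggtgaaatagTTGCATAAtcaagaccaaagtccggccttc
Cyp2a5: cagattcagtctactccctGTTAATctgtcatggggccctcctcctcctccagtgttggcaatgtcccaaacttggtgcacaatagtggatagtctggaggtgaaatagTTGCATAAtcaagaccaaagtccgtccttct

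TTGCATAA lay at -70 to -63 in Cyp2a4 and at -71 to -64 in Cyp2a5, and in 0.695% of the 32817 mouse promoter windows of 250 bases, with both strands searched. It was added to the search after these sequences had been read. GTTAAT was found in 6.44% of promoters, and among the members also on the minus strand of Cyp2d26 at -90 to -85. AGGTCA, a nuclear receptor half-site, was found in Cyp2j5 at -197 to -192 and in 14% of promoters. TTACATAA (0.817% of promoters), TTACGTAA (0.113%) and the E-box CACGTG (6.02%) were not in these windows of the 6 members. A match describes letters, and neither a match nor its absence shows what binds there.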

How the data were processed

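Whole-kidney RNA of 12 libraries (4 groups of 3) was measured. Per the submitters' processing notes, the authors' tools were cutadapt 1.2.1, TopHat2 2.0.9, HTSeq 0.5.4p3 and R 3.1.1, on the build GRCm38. Per the labels, libraries were made from 500 ng of RNA with a stranded mRNA kit. The deposited values are raw counts per gene. Not given in the sources used here: the counting mode, its strand setting and the annotation release. Lines for reads without a gene (no feature 3.50% to 5.96%, ambiguous 0.411% to 0.534%, not unique 30.8% to 43.0%) entered neither library sizes nor tests.

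GENCODE M21 named 37607 of the 38924 gene IDs. Genes passing edgeR's default filter (16150) were fitted over all 4 groups with TMM scaling and the edgeR quasi-likelihood test (edgeR 4.0.16, R 4.3.3), with 8 residual degrees of freedom, Benjamini-Hochberg adjustment over all genes tested and a threshold of 0.05. The fit was tested on simulated data. Alternatives were RLE scaling, other filters, DESeq2 1.42.0, limma voom (limma 3.58.1), fewer groups, left-out libraries, a replicate block and summed Cyp2a counts. Coding identity was computed with Biopython from GENCODE transcripts, and promoter sequences are RefSeq's. Intervals on shares are Wilson 95% intervals.

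The members and lists were chosen with earlier results of these data known. Genes named were the 7 members, other Cyp2 genes called between genotypes and the 3 most abundant otherwise, list genes called between genotypes (at most 6 a list) with Por, Nr1i3, Dbp, Tef and Hlf always, the 3 genes most like each member, and Arntl, except that some genes under this rule are not reported here. Hnf4a, the cell type markers named, and the examples of genes without counts were named after their values were seen.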

Additional observations from a re-analysis of the deposited data

How the results depend on the processing

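The genotype calls of Cyp2a4, Cyp2a5 and Cyp2e1 kept their direction and side of the threshold in every alternative run (18, 18 and 19 at each time). Without each library in turn, the number of members called was 3 to 6 at ZT4 and 3 to 6 at ZT16 between genotypes, 1 to 5 in WT and 0 to 4 in KO between times; a fit of only the groups compared called 3 at ZT16 and 0 in KO between times. Genes called in all numbered 531 and 651 between genotypes, 1050 and 1691 between times in WT and KO, and 3 in the interaction. DESeq2 called 1061, 1008, 2149, 3705 and 18, and a fit of only the groups compared 2877, 200, 3557 and 36. Without each library in turn the counts were 228 to 2503, 380 to 5099, 220 to 5473, 181 to 3629 and 3 to 8. Leaving out KO ZT16 replicate 2 gave 2503, 5099, 5473 and 8, KO ZT16 replicate 6 gave 3629, KO ZT4 replicate 4 gave 228 and 181, WT ZT16 replicate 5 gave 380 and WT ZT4 replicate 5 gave 220. In KO between times 851 genes rose and 840 fell, against 2326 and 1379 with DESeq2. The cause was not tested.

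The ZT4 and ZT16 libraries of a genotype share replicate numbers. As deviations from their group means, same-numbered libraries correlated at 0.0542, -0.0676 and -0.266 in WT and -0.00809, -0.0509 and -0.00285 in KO. Libraries of unlike number correlated at -0.186 to 0.224 in WT and -0.0784 to 0.091 in KO. With 3 libraries a group, these values cannot show whether the shared numbers mark pairs. With a replicate block, 229 genes passed between times in WT and 189 in KO, with 1 in the interaction, and 2 and 1 members; Cyp2a5 in KO had an adjusted p of 0.0650 and Cyp2e1 0.0960 in WT and 0.0902 in KO.

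Differences near 0 changed sign. Cyp2j5 at ZT16 was -0.015 with limma voom and -0.23 to 0.12 without each library in turn, and Cyp2d26 between times in WT -0.057 to 0.12. The interaction of Cyp2a4 was 0.0078 with RLE scaling and 0.0079 with DESeq2. Without each library in turn the interactions were -0.17 to 0.085 (Cyp2a4), -0.16 to 0.040 (Cyp2e1), -0.083 to 0.079 (Cyp2d22), -0.16 to 0.12 (Cyp2j13) and -0.076 to 0.27 (Cyp2j5). The same range was -0.096 to 0.022 for Cyp2j11, -0.11 to 0.19 for Cyp2j6, -0.014 to 0.29 for Cyp2c23 and -0.15 to 0.014 for Hlf at ZT16, and -0.19 to 0.096 for Arntl at ZT4. With 3 libraries a group, differences of the size of Cyp2d26 or Por lie near what the spread lets pass.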

Other observations

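Some Cyp2 genes outside the 7 members changed between the times and were named after their values were seen. From ZT4 to ZT16, 2 of the 16 other tested Cyp2 genes fell in WT and none rose: Cyp2f2 by 0.72 ± 0.17 (edgeR, adjusted p = 0.0290) and Cyp2j8 by 1.62 (adjusted p = 0.0279). Of all genes tested, 3.63% fell and 2.87% rose in WT, and 5.2% fell and 5.27% rose in KO. Cyp2j8 had low counts, at 3 to 31 a library. In KO, Cyp2j8 (-2.20, adjusted p = 0.0139), Cyp2j9 (-0.64, 0.0218) and Cyp2s1 (-0.72, 0.0218) fell and Cyp2d9 rose (0.49, 0.0467). These moved against the 3 members that rose, apart from Cyp2d9. The WT differences of Cyp2s1 (-0.60, 0.05003), Cyp2j9 (-0.42, 0.09025) and Cyp2d9 (0.27, 0.215) had the same directions but did not pass the test. In KO the Cyp2f2 difference was -0.10 (0.651). The interaction of genotype and time passed the test for none of these genes (edgeR, adjusted p = 0.9996 for each). Leaving out single libraries ended the WT calls of Cyp2f2 (any 1 of the 6 WT libraries, adjusted p from 0.0530 to 0.123) and Cyp2j8 (WT ZT4 replicates 3 or 5 or any 1 of the WT ZT16 libraries, 0.0562 to 0.128). It ended the KO calls of Cyp2j8, Cyp2j9 and Cyp2s1 without KO ZT4 replicates 4 or 6 (0.0507 to 0.0937) and that of Cyp2d9 without KO ZT16 replicate 2 (0.29, 0.0833), one of 14 alternatives that ended it.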
